A study of Mus musculus with 2 samples.

Results

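The genes of the cytosolic ribosomal proteins were compared between pituitary cells kept in RNA-Best and pituitary cells kept in RNAlater. Members were the protein-coding genes whose symbol was Rpl or Rps followed by a digit, Rplp0, Rplp1, Rplp2 or Rpsa, and the S6 kinase genes were left out. This name rule, which used no measured value, took 92 of the 47069 genes in the count table. Of these, 77 encoded a protein of the ribosome (31 of the small and 46 of the large subunit). The other 15 were 14 copies and paralogs and Rps19bp1, which encodes a protein that binds Rps19 and is no subunit. Rack1 and Fau encode further small subunit proteins under other names, so they were not members and are given below as comparison genes.

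Both samples were acutely dissociated whole pituitaries of randomly cycling female C57BL/6 mice aged 10 to 12 weeks, with 500000 to 700000 cells pooled from 5 glands in each. One sample was placed in RNA-Best, a buffer developed to stabilize RNA inside intact single cells, and the other in RNAlater, an established RNA stabilizer. Poly(A) RNA was sequenced in 1 library per stabilizer, with 53915047 and 44917492 counts in genes, so no difference had a replicate check and no test was run. The stabilizer, the pooled glands and the library preparation cannot be told apart. All intervals are 95% intervals and cover counting error only, because PCR copies of a molecule were counted as separate reads.

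Each ribosome joins a small subunit, which decodes the mRNA, with a large subunit, which forms the peptide bond. One copy of nearly every ribosomal protein is built into each ribosome, so cells need these proteins in near-equal amounts. Their mRNAs are short and abundant, and they start with a 5′ terminal oligopyrimidine (TOP) tract through which growth signals set their translation. Most of these genes have many processed pseudogenes, and this family is therefore among the hardest to count from short reads.

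The sequences below show why. Rps27 encodes a small subunit protein, Rps27rt is its retrogene copy and Rps27l is a diverged paralog. The first 90 coding bases of each are given, from the GENCODE M21 transcripts on GRCm38, with the bases that differ from Rps27 in capitals.
Rps27: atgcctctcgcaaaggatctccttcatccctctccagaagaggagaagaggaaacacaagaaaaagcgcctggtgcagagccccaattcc
Rps27rt: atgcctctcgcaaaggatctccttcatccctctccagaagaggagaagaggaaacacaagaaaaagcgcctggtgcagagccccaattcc
Rps27l: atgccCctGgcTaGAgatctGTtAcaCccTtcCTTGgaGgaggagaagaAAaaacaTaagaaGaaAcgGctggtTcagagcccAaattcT
Rps27rt had 0 differences in this stretch and Rps27l had 24. The reads were 51 bases long, so a read from this stretch could be assigned to Rps27l but not between Rps27 (chr3:90212522-90213651, minus strand) and Rps27rt (chr9:114982366-114982739, minus strand). A second pair, Rpl39 of the peptide exit tunnel (chrX:37082520-37085402, minus strand) and its paralog Rpl39l (chr16:10170226-10174911, plus strand), differed at 10 of the 90 bases.
Rpl39: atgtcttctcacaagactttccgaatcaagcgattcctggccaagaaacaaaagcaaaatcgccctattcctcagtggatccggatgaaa
Rpl39l: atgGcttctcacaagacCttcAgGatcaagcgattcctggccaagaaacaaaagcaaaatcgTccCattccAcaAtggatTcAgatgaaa

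The levels of the ribosomal protein genes were higher in RNA-Best almost throughout. Counts were divided by the total of each library to give CPM, the usual depth-scaled unit. Paired CPM values stand in the order RNA-Best, RNAlater. The log2 ratio of the first to the second was taken with 0.5 CPM added to both. A gene was compared where its mean over both libraries was at least 1 CPM, which all 77 subunit genes and 88 of the 92 members passed. Of the 77 subunit genes, 76 were higher in RNA-Best, against 33% of all 16504 genes compared. At least 1.5-fold higher were 35 of them, against 3.22% of all genes, and at least 2-fold higher were 4, against 0.273% of all genes. None was at least 1.5-fold lower, against 18.8% of all genes. The median log2 ratio was 0.57 (quartiles 0.41 and 0.67), while the median of all genes was -0.18. Other scalings (TMM, DESeq2 size factors, and the total without Prl and Gh) moved the median of all genes up by 0.12 to 0.17. Ratios are therefore best read against that median. Under each of these scalings all 88 members compared were higher in RNA-Best. Of all genes, 48.7%, 49.7% and 44.8% were then higher, in the same order of scalings. Among all genes at least 1.5-fold apart, the higher genes were 14.6% with the column total, 39.0% with TMM, 41.2% with DESeq2 size factors and 32.5% when the 2 hormone genes were left out of the total. The counting interval lay above 0 for 74 of the 77 subunit genes, and its median half-width was 0.043 on the log2 scale.

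Together the 92 members held 2.61% of the counts in RNA-Best (exact binomial interval 2.605 to 2.614) and 1.68% in RNAlater (1.674 to 1.681). The 77 subunit genes alone held 2.503% and 1.607%. Prl and Gh, the prolactin and growth hormone genes, took 29.7% of the counts in RNA-Best and 23.2% in RNAlater. Of the total without these 2 genes, the members held 3.71% in RNA-Best and 2.18% in RNAlater. Why the shares of the members differ was not tested. In bulk samples, fewer cells of a type and less RNA per cell cannot be told apart.

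Both subunits showed the same direction. Among the small subunit genes, 30 of 31 had a ratio above 0 and 18 were past 1.5-fold, with a median log2 ratio of 0.62. For the large subunit, 46 of 46 were higher and 17 were at least 1.5-fold higher, with a median of 0.54. With TMM, DESeq2 size factors and the total without Prl and Gh, 24, 25 and 24 small subunit genes and 33, 34 and 31 large subunit genes passed 1.5-fold. The subunits thus differed by 0.08 in their medians, less than the distance between the quartiles within either subunit (0.47 to 0.76 for the small and 0.40 to 0.63 for the large subunit).

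The highest ratio belonged to Rps14, which encodes a small subunit protein, with 1047 and 445 CPM (log2 ratio 1.23, interval 1.21 to 1.26). Rpl41, which encodes a very short basic peptide of the large subunit, followed with 907 and 434 CPM (1.06, 1.04 to 1.09). Rps3, which lines the mRNA entry channel, had 1483 and 722 CPM (1.04, 1.02 to 1.06). These were, with Rpl34, the genes past 2-fold. Rpl34 had 232 and 114 CPM (1.02, 0.98 to 1.07), so its interval crossed the 2-fold limit. Rpl13a, known also for silencing the translation of inflammatory mRNAs, stood just under the limit with 1318 and 659 CPM (0.998, 0.98 to 1.02). Rps3 (chr7:99477896-99483738) and Rpl13a (chr7:45125558-45128761) lie on the minus strand of chromosome 7, which carried 14 of the 77 subunit genes, the most of the 19 chromosomes that held any.

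At the low end, Rps26 of the mRNA exit channel (chr10:128624534-128626747, minus strand) had 104.5 and 105.8 CPM. Its log2 ratio was -0.02 (interval -0.07 to 0.04), and it was above 0 under the other 3 scalings. Rpl24, a large subunit protein at a bridge to the small subunit, had 16.5 and 15.7 CPM (0.07, -0.07 to 0.22). Rpl29, also of the large subunit, had 20.1 and 18.5 CPM (0.12, -0.01 to 0.25). These 3 are the subunit genes whose counting interval included 0. Rpl23a, at the exit of the peptide tunnel, came next with 17.0 and 14.5 CPM (0.22, 0.08 to 0.38). Rps26 was not scarce, whereas Rpl24, Rpl29 and Rpl23a were the 3 genes with the lowest levels of the 77.

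**Figure D1:**
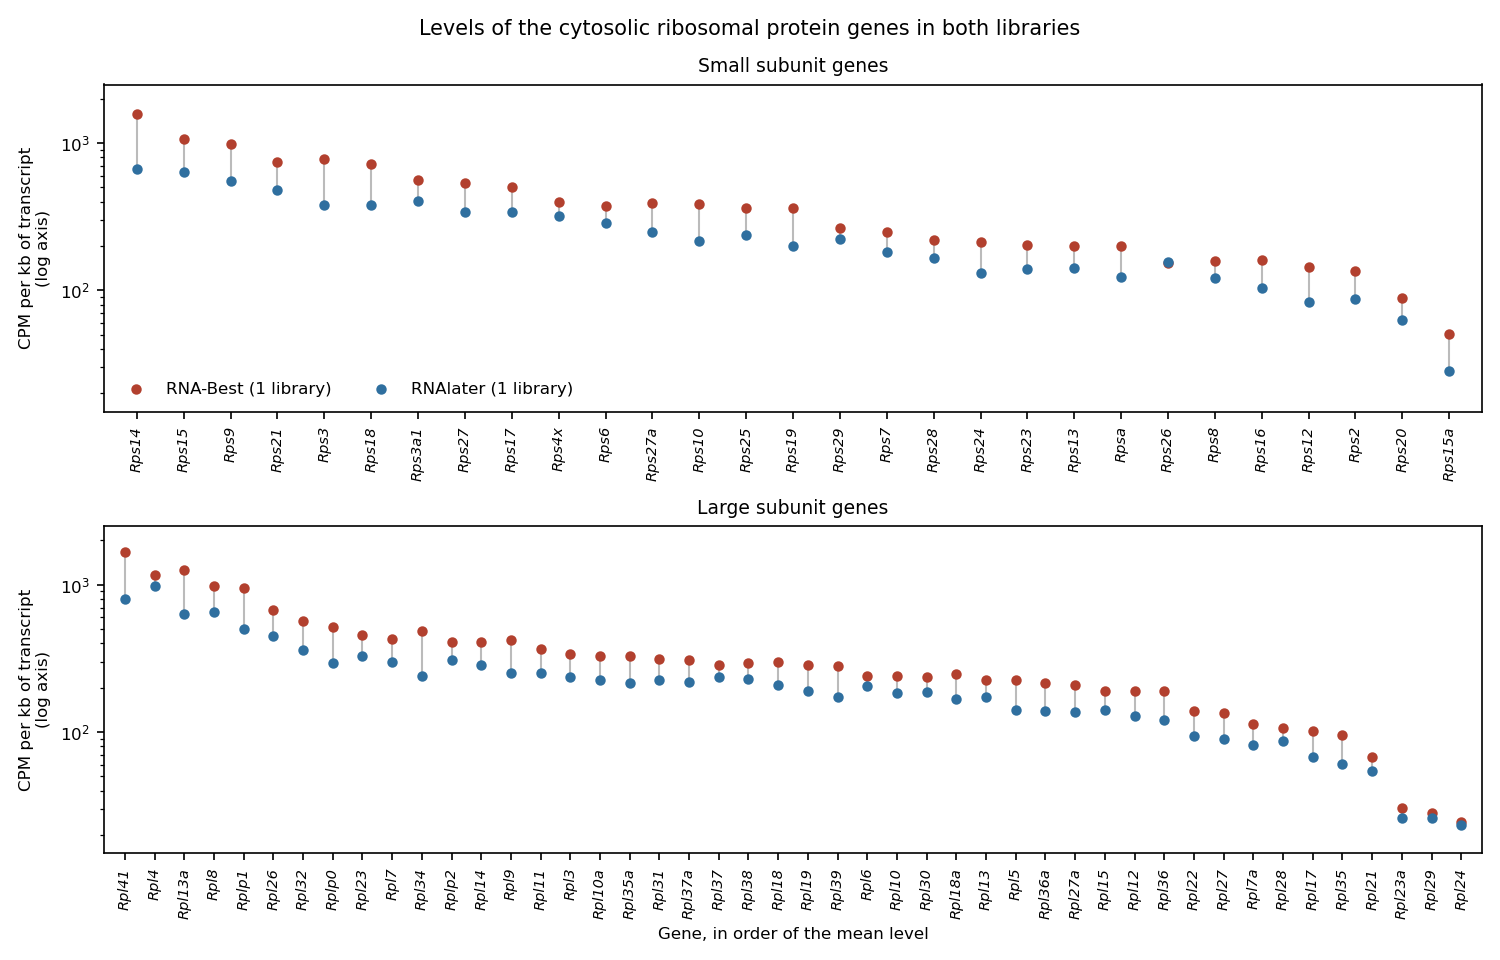
Level of 75 of the 77 subunit genes in CPM per kb of its principal transcript (log axis), in order of the mean over both libraries, with 1 red point for the RNA-Best library and 1 blue point for the RNAlater library. The red point lies above the blue one for 74 genes, and the last 3 large subunit genes, Rpl23a, Rpl29 and Rpl24, lie far below the others.

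Levels were then compared between genes per length, as CPM per kb of the principal transcript in the annotation. The median of the 77 subunit genes was 292 CPM per kb in RNA-Best and 214 in RNAlater, and 50 and 51 of them lay within 2-fold of the median. The whole span was 68.4-fold in RNA-Best and 41.9-fold in RNAlater. At the top by the mean of both libraries stood Rpl41 with 1668 CPM per kb in RNA-Best and 798 in RNAlater, Rps14 with 1570 and 668, and Rpl4, whose loop reaches into the peptide tunnel, with 1167 and 973. Rpl4 led in RNAlater and Rpl41 in RNA-Best. At the bottom stood Rpl24 with 24.4 and 23.2 CPM per kb, Rpl29 with 28.3 and 26.0, and Rpl23a with 30.4 and 25.9. The order of the genes was nearly the same in both libraries (Spearman correlation over 77 genes, 0.984), which share their annotation, gene lengths and counting. A few lengths are uncertain, since the principal transcript of Rps15a is 5130 bases long while the median of the 77 is 751.

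The whole coding sequence of Rpl41 (chr10:128548114-128549305, minus strand), the gene with the highest level per length in the mean of both libraries, is only 75 bases long.
Rpl41: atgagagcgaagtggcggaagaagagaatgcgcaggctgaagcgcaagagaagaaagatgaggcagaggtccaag

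Members with a known role were then read one by one. The stalk proteins recruit translation factors to the large subunit. Rplp0, the base of the stalk, had 697 and 399 CPM (log2 ratio 0.80, interval 0.78 to 0.83), and Rplp1 had 474 and 250 CPM (0.93, 0.89 to 0.96). Rplp2, the partner of Rplp1, had 184 and 138 CPM (0.41, 0.36 to 0.46). Rplp1 and Rplp2, whose proteins pair in the stalk, therefore differed in ratio by more than their counting intervals. Rpl5 and Rpl11, which carry 5S rRNA into the ribosome and bind Mdm2 when assembly fails, had 462 and 290 CPM (0.67) and 305 and 209 CPM (0.54). Rps6, the target of the S6 kinases, had 329 and 254 CPM (0.38, 0.34 to 0.41). Rpsa, also known as the laminin receptor precursor, had 320 and 197 CPM (0.70, 0.66 to 0.74). All 7 genes were higher in RNA-Best, and Rplp0, Rplp1, Rpl5 and Rpsa were at least 1.5-fold higher.

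Some ribosomal proteins are made as fusions with ubiquitin or a ubiquitin-like protein. Rps27a, the ubiquitin fusion among the members, had 251 and 160 CPM (0.65, 0.61 to 0.69). Fau, the fusion that carries S30, had 270 and 170 CPM (0.66, 0.63 to 0.71). The ratios of Rps27a and Fau lay within each other's counting intervals. The members on the X chromosome were Rps4x (log2 ratio 0.33), Rpl10 (0.39), Rpl36a (0.64) and Rpl39 (0.71), all higher in RNA-Best.

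A list of 10 of the members that are mutated in Diamond-Blackfan anaemia, an inherited failure of red cell production, included Rps26 and was not the full set of such genes. Of the 10, 9 were higher in RNA-Best and 5 at least 1.5-fold higher, with a median log2 ratio of 0.59. The highest was Rps19 at 0.84. All 8 genes whose proteins ring the exit of the peptide tunnel were higher, 4 of them at least 1.5-fold, with a median of 0.58 and a range from Rpl23a at 0.22 to Rpl39 at 0.71. Under the other scalings 9 of the 10 and 6 or 7 of the 8 passed 1.5-fold. Introns of 30 subunit genes carried 58 small nucleolar RNAs in the annotation, and the median of these host genes was 0.50, against 0.59 for the other 47. All of these medians were close to the 0.57 of the 77 genes.

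Rps25 is a member for which the study listed qPCR primers. The study measured it as a house-keeping gene in single cells of the gonadotrope line LβT2, all kept in RNA-Best. The values here come from bulk pituitary and compare stabilizers, so they do not bear on that use. Rps25 had 209 and 136 CPM (log2 ratio 0.62, interval 0.57 to 0.66), which was past 1.5-fold. The primers are shown, 5′ to 3′, because they decide which copies an assay reads.
Rps25 forward: aagctctgtaaggaggttccgaa
Rps25 reverse: cgcgaatcttcagtctctca
The pair spans 73 bases of the Rps25 transcript (chr9:44407139-44410427, plus strand). It matched 2 annotated genes exactly with both primers, and the forward primer alone was found in 6.

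Because long mRNAs were lower in RNA-Best across the whole table, length was compared next. Over the 16443 genes with a length, the Spearman correlation of the log2 ratio with transcript length was -0.65, and over the 77 subunit genes it was -0.06. These are correlations across genes of the same pair of libraries and carry no p. Of the 77 genes, 57 had a transcript of at most 1 kb. In every length class the subunit genes stood above the other protein-coding genes in the median. Up to 0.5 kb, the median log2 ratio was 0.64 for 13 subunit genes and 0.32 for 91 other coding genes. From 0.5 to 1 kb it was 0.54 for 44 and 0.24 for 784, and from 1 to 2 kb it was 0.56 for 16 and 0.03 for 3055. The longer classes held only 4 subunit genes, with 3 at 2 to 4 kb (median 0.57 against -0.22) and Rps15a over 4 kb (0.84 against -0.57). In all, 12 of 13, 40 of 44, 16 of 16, 3 of 3 and 1 of 1 genes lay above the median of the other coding genes of their class. Up to 2 kb, the subunit genes thus had much the same median ratio in each class, while that of other coding genes was lower in each longer class. Beyond 2 kb the annotated lengths are uncertain. The coding sequence of Rps15a is 390 of its 5130 bases, and that of Rps20 is 357 of 3706.

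Short and abundant coding genes made a closer comparison. Of 202 other coding genes with at most 1 kb and a mean level of 50 CPM or more, 159 were higher in RNA-Best (78.7%) and 20.3% passed 1.5-fold, with a median log2 ratio of 0.27. Of 54 subunit genes with the same limits, 53 were higher and 48.1% were at least 1.5-fold higher, with a median of 0.57. The GC content of the transcript showed little relation to the ratio among the 77 genes (Spearman 0.08).

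**Figure D2:**
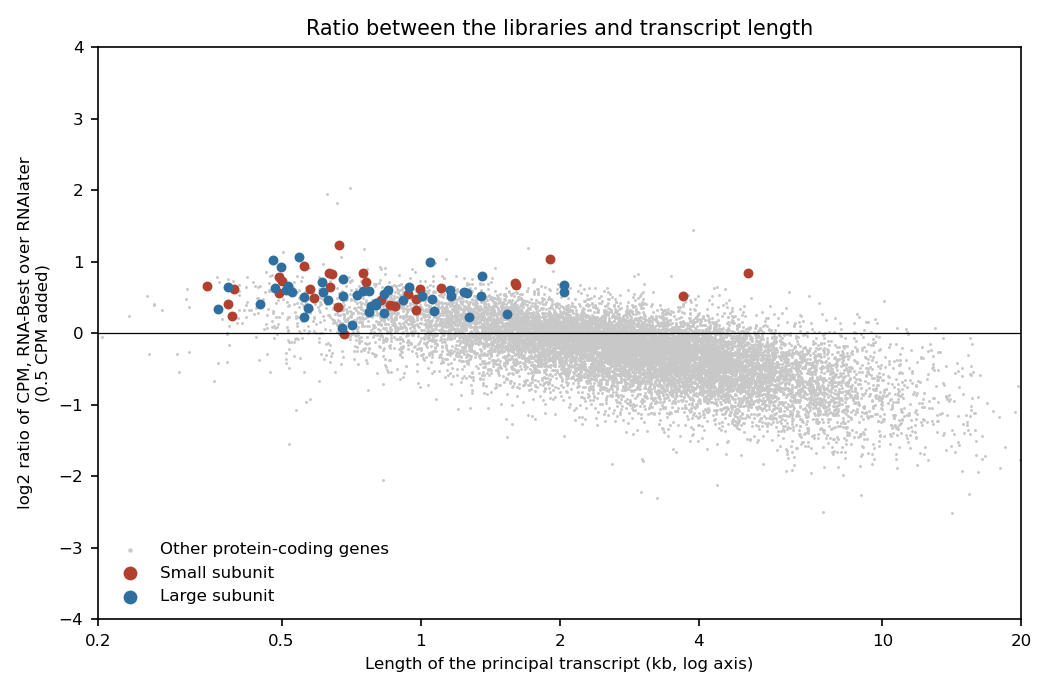
Log2 ratio of CPM (RNA-Best over RNAlater, 0.5 CPM added) against the length of the principal transcript in kb (log axis), for 31 small subunit genes (red), 46 large subunit genes (blue) and 13707 other protein-coding genes that passed 1 CPM (grey), with 10 more outside the axes. The grey cloud slopes down with length, from a median of 0.32 up to 0.5 kb to -0.57 over 4 kb. The coloured points scatter from -0.02 (Rps26) to 1.23 (Rps14) around a median of 0.57. Only 3 of them lie at 2 to 4 kb and 1 over 4 kb.

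Genes that share a function with the members differed among themselves. Of 21 nonribosomal mRNAs that also start with a TOP tract, 19 had a ratio above 0 and 6 were past 1.5-fold, with a median log2 ratio of 0.34. Rack1, a scaffold protein on the small subunit, was the highest with 915 and 487 CPM (0.91, 0.89 to 0.93). Pabpc1, the cytoplasmic poly(A)-binding protein, was the lowest with 221 and 326 CPM (-0.56, -0.60 to -0.53). Both keep their direction under all 4 scalings, while the count past 1.5-fold became 9 (TMM), 10 (DESeq2 size factors) and 8 (total without Prl and Gh). The TOP mRNAs other than ribosomal proteins therefore included genes on either side of 0.

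The 77 mitochondrial ribosomal protein genes compared, which serve the separate ribosome of the organelle, had a median of 0.28, with 68 higher and 5 at least 1.5-fold higher, beside 33% and 3.22% of all genes. Under the other scalings 75 were higher, and 22 (TMM), 23 (DESeq2 size factors) and 16 (total without Prl and Gh) passed 1.5-fold, beside 7.32%, 7.73% and 6.44% of all genes. They ran from Mrpl14 at 0.81 (23.4 and 13.2 CPM) to Mrps2 at -0.31 (13.9 and 17.3 CPM). The 24 factors of ribosome assembly and ribosomal RNA synthesis had a median of -0.31 under the column total, beside -0.18 for all genes. Of the 24, 5 were higher (20.8%, against 33% of all genes and 21.5% of genes of 2 to 4 kb). Their median length was 2667 bases. At least 1.5-fold higher was 1 (4.17%, against 3.22% of all genes), and 7 were at least 1.5-fold lower, against 18.8% of all genes. The counts of higher genes thus lay near the background. Under the other scalings 9 or 10 of the 24 were higher, beside 44.8% to 49.7% of all genes. Their median stayed below 0 (-0.12 to -0.18), as did that of all genes (-0.003 to -0.055). At least 1.5-fold lower were then 3, 3 and 5. Nhp2, a small protein of the box H/ACA particles, was the highest at 0.61 (17.5 and 11.3 CPM). Mdn1, the giant ATPase that matures the large subunit, was the lowest at -1.89 (9.54 and 36.7 CPM), and its transcript is 17959 bases long. Length differs between these lists, and its part in their order was not tested.

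**Figure D3:**
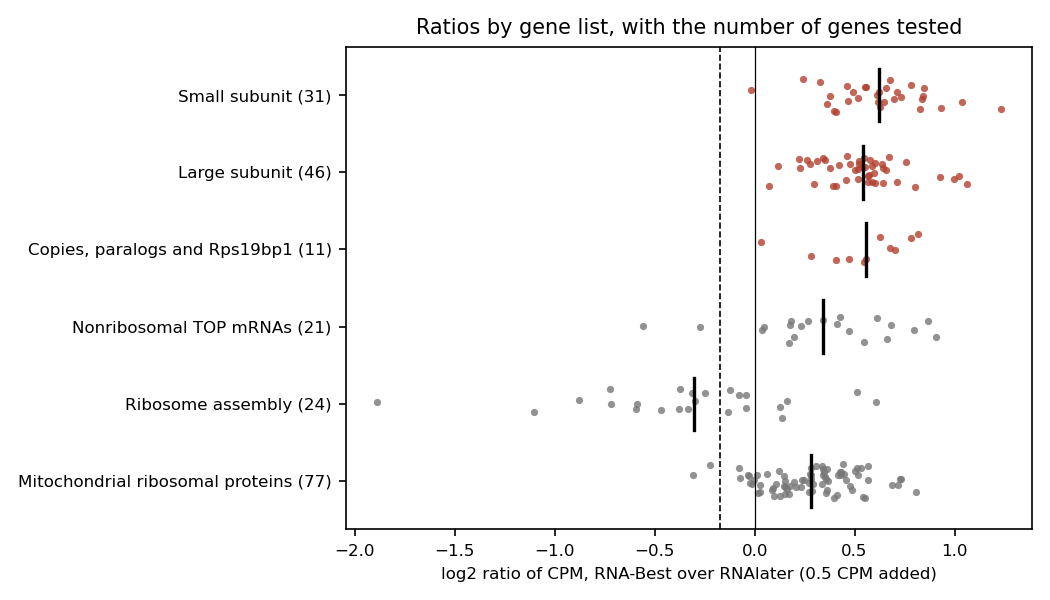
Log2 ratios of CPM (RNA-Best over RNAlater, 0.5 CPM added) of single genes in 6 lists, with members in red, the comparison lists in grey, the number of genes compared in parentheses and a black bar at each median; the solid line marks 0 and the dashed line the median of all genes at -0.18. The medians run from 0.62 for the small subunit to -0.31 for ribosome assembly factors, and vertical scatter within a list has no meaning.

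The copies and paralogs showed what the counting could and could not separate. Rps27 had 186 and 118 CPM, and its identical copy Rps27rt had 183 and 114 CPM. The copy thus took 49.6% and 49.3% of their summed counts. Over its whole coding sequence Rps27rt was 100% identical, as were Rps12-ps3 to Rps12 and Rpl10-ps3 to Rpl10. Rps12-ps3 took 48.3% and 47.7% of the summed counts of its pair, and Rpl10-ps3 took 47.7% and 47.4%. Rpl9-ps6, with 1 coding difference from Rpl9 in 576 bases, took 43.9% and 43.5%, and Rpl36a-ps1, 97.8% identical to Rpl36a, took 34.0% and 34.1%. Rpl9-ps1, at 95.3% identity, had 1.73 and 0.87 CPM, so it passed the limit of 1 CPM through RNA-Best. The near-even splits appear for the identical pairs, and their levels are best read as a sum.

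Diverged paralogs shared no word of read length with their partner in the coding sequence, although each of the 4 given here shared words with pseudogenes. Rpl22l1, the paralog of Rpl22, had 127 and 86.2 CPM (0.56), next to 285 and 191 CPM for Rpl22 (0.57). Rps27l, known as a p53 target, had 48.2 and 34.7 CPM (0.47), and Rpl7l1 had 55.4 and 45.5 CPM (0.28) next to 500 and 350 CPM for Rpl7 (0.51). Rpl36al had 111 and 75.6 CPM (0.55), and Rpl36a had 105 and 67.1 CPM (0.64). Both had 0% of words unique, and summed with the copies of their families they had 191 and 129 CPM and 268 and 172 CPM, so their own levels depend on how reads were split. These 4 paralogs were higher in RNA-Best.

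The remaining paralogs were at or near the limit that a count of 0 allows, which is 3 counts or 0.0556 and 0.0668 CPM. Rpl3l, the heart and muscle paralog of Rpl3, had 1 count in RNA-Best and 0 in RNAlater. Rpl10l, which replaces Rpl10 in male meiosis, had 0 counts and 0.5 counts. Rpl39l, the testis paralog of Rpl39 shown above, had 5 and 8 counts. Rpl36-ps4 had 3.03 and 0.85 counts. These are the 4 members that did not pass 1 CPM. Rps19bp1, the member that is no subunit, had 11.3 and 11.1 CPM (0.03, -0.14 to 0.21), a difference within counting error.

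How far each gene could be counted on its own was then measured. Each coding sequence was cut into all words of 51 bases, and each word was searched in all annotated transcripts on both strands. In the median subunit gene 7.19% of the words were found in no other gene, and the words of a gene were shared with a median of 9 other genes and at most 122, for Rpl7a. Of the 77 genes, 58 had fewer than 20% unique words. Rps27, Rps12, Rpl41 and Rpl24 were among those with 0%. Only Rpl8, near the peptidyl transferase centre, had whole-number counts in both libraries (45181 and 24795) among the subunit genes. Rps19bp1, Rpl3l and Rpl39l did so among the other members, and the remaining 88 had a fractional count in at least 1 library, from reads split between features.

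Genes with more unique words had higher levels. The 6 subunit genes with at least 60% unique words, among them Rpl4, Rpl8, Rpl22 and Rps3, had a median of 774 CPM per kb in RNA-Best and 424 in RNAlater. The 13 genes with 20 to 60% had 484 and 301, and the 58 genes below 20% had 244 and 183. The Spearman correlation of level and unique share over the 77 genes was 0.45 in RNA-Best and 0.44 in RNAlater. The 11 genes with more than 10% of their words in at least 10 other genes had the lowest medians, 135 and 82.9. The classes overlapped widely, since Rpl13a with 2.5% unique words had 1258 CPM per kb in RNA-Best and Rpl22 with 70.1% had 139. Rpl41 with 0% had 1668, but its words cover a coding sequence of 75 bases in a transcript of 544. Only 9.08% (RNA-Best) and 9.07% (RNAlater) of the counts of its family lay outside Rpl41. The ratio between the libraries varied less, with class medians of 0.63, 0.68 and 0.55, and 0.46 for the 11 genes with many copies.

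**Figure D4:**
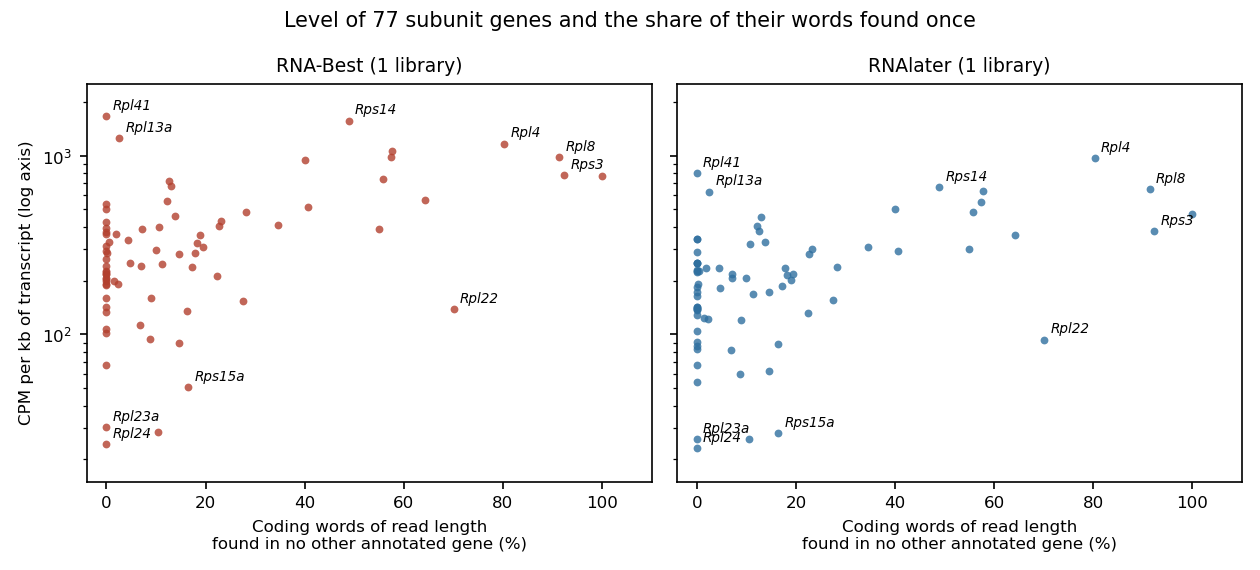
Level in CPM per kb of transcript (log axis) of the 77 subunit genes against the percentage of their coding words of 51 bases found in no other annotated gene, in the RNA-Best library (left, red) and the RNAlater library (right, blue). Genes with few unique words span the whole range of levels, from Rpl24 to Rpl41, and genes with at least 60% lie high except Rpl22. The value of Rpl41 rests on a coding sequence of only 75 bases.

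Summing each gene with its copies changed the levels far more than the ratios. The members fell into 86 families linked by shared coding words, together with 839 annotated pseudogenes that have a row in the count table, and the pseudogenes held 47.0% of the family counts in RNA-Best and 47.9% in RNAlater. For Rpl24 the family sum was 174 and 143 CPM, of which 90.5% and 89.0% lay outside the gene itself. For Rpl23a it was 332 and 297 CPM, with 94.9% and 95.1% outside the gene. Their family log2 ratios were 0.28 and 0.16. For Rps25 the sum was 456 and 298 CPM (0.62), and for Rps14 it was 1653 and 696 CPM (1.25). The family of Rps3 held Rps3 alone, since the 1 annotated pseudogene that shares words with it has no row in the count table. The Rps26 family, with 139.8 and 139.9 CPM, stood at -0.0015. Of the 82 families that passed 1 CPM, 81 were higher in RNA-Best and 39 at least 1.5-fold higher, with a median of 0.57. Thus 2 of the 3 subunit genes with the lowest levels had about 9 in 10 of their family's counts in pseudogenes, and Rps26 remained the family that was not higher.

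The start sites of the genes were read from RefSeq to look for runs of pyrimidines, of which a TOP tract is made. Windows of 30 bases, 15 before and 15 from the annotated start, are shown on the strand of the gene for genes at the ends of the ratio range and for Rps27, with the longest run of C and T in capitals (GRCm38.p6). Rpl34 had 2 starts in the table, and the one with the longer run (18 bases, against 8 at the other) is shown.
Rpl13a, chr7:45128731-45128760: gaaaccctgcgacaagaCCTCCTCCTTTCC
Rpl34, chr3:130730323-130730352: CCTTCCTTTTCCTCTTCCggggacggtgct
Rps27, chr3:90213634-90213663: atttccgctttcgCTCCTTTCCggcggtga
Rps26, chr10:128626492-128626521: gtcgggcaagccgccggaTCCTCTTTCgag
Rpl41, chr10:128549154-128549183: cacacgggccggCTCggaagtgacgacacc
Rps3, chr7:99483695-99483724: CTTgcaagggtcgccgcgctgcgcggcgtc
All 6 lie on the minus strand. Rps26, with a ratio near 0, and Rpl13a and Rpl34, with ratios near 2-fold, had long runs, while the windows of Rpl41 and Rps3 did not. Of the 77 subunit genes, 57 had a RefSeq start in the table used, with 67 starts in all. A run of at least 7 pyrimidines was present at 47.8% of these starts and at 18.6% of all 32851 starts, and the letters CTTTCC, on the strand of the gene, at 13.4% and 1.42%. Over the 300 bases around the start, CGGAAG on either strand, the core of sites for ETS family factors, was present at 62.7% and 16.9%. Annotated starts can miss the start in use, so a window without a run says only that these letters are not in it. A run was also counted where it lay wholly before the annotated start, as for Rps25. Genes with and without a run are therefore not the same as genes with and without a TOP tract. The 31 genes with a run of at least 7 had a median log2 ratio of 0.60, and the 26 without one had 0.56.

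The tissue label and the cell composition were checked with marker genes, since the libraries can hold different mixtures of cells. All 10 endocrine markers of the pituitary were present, with a summed level of 307187 and 239218 CPM, mostly Prl and Gh. The erythroid genes summed to 3200 and 1130 CPM, with 5 of 5 compared higher in RNA-Best. Summed levels were lower in RNA-Best for endothelial markers (189 and 412 CPM, 0 of 5 higher), pericyte and fibroblast markers (547 and 721 CPM, 0 of 6), posterior lobe markers (90.8 and 172 CPM, 0 of 4) and stem and folliculostellate markers (140 and 220 CPM, 0 of 4). For genes over 4 kb and for genes of 2 to 4 kb, 5.79% and 21.5% of all genes compared were higher in RNA-Best, and the median lengths of these lists were 3995, 4722, 2433 and 2160.5 bases. By sign alone, counts of 0 higher in lists of 4 to 6 genes therefore lie near the background for such lengths. By size, the list medians of the log2 ratio were -1.13, -0.75, -0.92 and -0.56. All genes of 2 to 4 kb had a median of -0.21, and those over 4 kb had -0.57. At least 1.5-fold lower were 5 of 5, 4 of 6, 3 of 4 and 1 of 4, against 18.8% of all genes. Under the other scalings these counts were 4, 3, 3 and 1. The part of length in these sizes was not tested. Macrophage markers summed to 192 and 177 CPM, with 4 of 7 higher. Under DESeq2 size factors 1 of the 6 pericyte and fibroblast markers was above 0. The part of these cells in the levels of the ribosomal protein genes was not tested.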

How the data were processed

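The authors deposited 1 table of estimated counts per gene for both libraries, made with STAR 2.5.1b and featureCounts 1.5.0-p1 on mm10 per the labels, and not normalized. The strand setting and the way reads with several matches were divided are not given in the sources used here. The values hold fractions although the design had assumed whole counts, so they were rounded for exact binomial intervals (level 95%) and for scaling factors. Identifiers were matched to GENCODE M21 on GRCm38 (46488 of 47069, 98.8%). Counts were divided by the column total to give CPM. Ratios used a pseudocount of 0.5 CPM, which understates the ratios of weakly expressed genes, and a mean of at least 1 CPM. With 1 library per group no model was fitted and no p-value is given. The length of a gene was that of its principal transcript. Words of 51 bases, the read length, were searched in annotated transcripts only, so copies outside the annotation were not seen.

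Named genes were those of the stalk, 5S particle, fusions and qPCR, the ends of levels and ratios, copies, paralogs, X-linked members, members with whole counts or not compared, and the ends of each list. Other genes, such as Rpl7a, Rps15a and Rps19, were named after their values were seen. Some genes that the rule would name are not reported here. Members, lists and tests were chosen with earlier results of these data known. Sequences came from GENCODE, RefSeq (GRCm38.p6; 66 of 92 members matched) and the primer table of the study. Alternatives were TMM (edgeR 4.0.16), DESeq2 1.42.0 size factors (R 4.3.3), the total without the 2 most abundant genes, other pseudocounts, filters and lengths, and sums with pseudogenes. Python 3.11.15, numpy 2.4.6, pandas 2.3.3, scipy 1.17.1, Biopython 1.88 and matplotlib 3.10.9 were used. The ratios and counting intervals were tested on simulated whole counts. The word search, family sums and start windows were not tested in this way.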

Additional observations from a re-analysis of the deposited data

How the results depend on the processing

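The direction of the main results held under every alternative run, except for the correlation of ratio and length. The median log2 ratio of the 88 members compared (0.56) became 0.74 with TMM, 0.75 with DESeq2 size factors, 0.69 without the 2 most abundant genes and 0.54 with a pseudocount of 5 CPM. Relative to the median of all genes (0.74) it became 0.75 with no pseudocount, 0.65 with 5 CPM and 0.65 with no filter. Of the members, 40 were at least 1.5-fold higher, and 65, 68 and 63 under the 3 other scalings, against 7.32%, 7.73% and 6.44% of all genes, while 4 passed 2-fold. The count of members higher ranged from 86 to 88 of those compared, apart from 76 of 77 subunit genes. The share of counts became 3.51% in RNA-Best and 2.27% in RNAlater with the pseudogenes named after 58 members, 2.503% and 1.607% with subunit genes only, and 3.71% and 2.18% of the total without Prl and Gh. The correlation of ratio and length was -0.13 over 88 members, -0.0910 with 5 CPM, -0.0795 with no filter, -0.0613 for subunit genes and 0.0322 with the longest annotated transcript, which reversed its sign. The correlation of levels between libraries (0.987) was 0.982 with pseudogenes and 0.984 for subunit genes. Family sums were chosen after seeing the data and kept the median at 0.57, with 81 of 82 families higher and 39 at least 1.5-fold higher. The cause of these shifts was not tested, apart from what each construction fixes. No paired analysis was possible because the stabilizers had 1 library each, so no replicate could be left out. Depth was not the limit for most genes, since the lowest counts of a subunit gene were 890 in RNA-Best and 653 in RNAlater, but multiple matches limit the level of single genes.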
